A study of Mus musculus with 2 samples.

Results

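The genes described here were the ligands, receptors and activators of transforming growth factor β (TGF-β) in regulatory T cells (Tregs) of mice with bleomycin (BLM)-injured lungs. They were chosen by symbol, as the 10 genes Tgfb1, Tgfb2, Tgfb3, Tgfbr1, Tgfbr2, Tgfbr3, Lrrc32, Itgb8, Itgav and Ltbp3, and all 10 were found among the 24346 symbols listed in both libraries. FDG mice, whose genotype is given as Foxp3-DTR-GFP, were used at 10 to 16 weeks of age. GFP is made from the endogenous Foxp3 locus in these mice and so marks Tregs. All mice received 50 μg BLM into the trachea, and GFP+CD4+ cells were sorted on day 15 from spleen and from lung. Each library held the pooled cells of 3 mice, so the 2 libraries compared, splenic Tregs and lung Tregs, shared the genotype, the treatment and the day. Tregs of naïve mice were not analysed here. With 1 library per tissue the differences below could not be checked against replicates and carry no p-values.

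TGF-β is secreted bound to its own propeptide, which keeps it latent, and the latent complex is held by a partner protein, either a latent TGF-β binding protein in the matrix or GARP, the product of Lrrc32, on the surface of Tregs. Integrins that contain the αv chain, the product of Itgav, bind the propeptide and release the active cytokine, and on T cells and dendritic cells the β8 chain, the product of Itgb8, is a partner of αv. Active TGF-β binds the type II receptor Tgfbr2, which recruits and activates the type I receptor Tgfbr1, and the SMAD proteins carry the signal to the nucleus. TGF-β is a driver of fibrosis, a cytokine that supports Foxp3 expression in T cells, and one of the cytokines with which the study cultured Tregs.

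Levels are given in FPKM, the fragments of a gene divided by its exon length and by the library total, so that genes of different length can be compared within a library. The reads behind each value were estimated from the value of 1 read, which was 0.0964 FPKM in the splenic and 0.0849 FPKM in the lung library at an effective transcript length of 1 kb. Over all genes with a known length these estimates came to 9859555 reads in spleen and 12877099 in lung. Intervals in brackets are 95% intervals of these read numbers (exact Poisson for a level, Clopper-Pearson for a ratio). They cover counting error only, since amplified copies of 1 molecule were counted separately, and they do not include variation between mice or between preparations. Less RNA of a gene per cell and fewer cells that express it cannot be told apart in bulk libraries.

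The receptors that carry the signal, Tgfbr1 and Tgfbr2, stood at nearly equal levels in splenic and lung Tregs, whereas Lrrc32, Tgfb1, Tgfb3 and the coreceptor Tgfbr3 were lower in lung. Both chains of the integrin αvβ8 were higher in lung, by less than 2-fold, on the FPKM as deposited but were near level when the libraries were rescaled to TPM (log2 ratios of 0.063 and 0.17 for Itgb8 and Itgav). Lrrc32 was the most abundant of the 10 genes in spleen and Tgfbr2 in lung. In spleen the order from high to low was Lrrc32, Tgfbr2, Tgfbr1, Itgav, Tgfb1, Tgfbr3, Itgb8, Tgfb3, Tgfb2 and Ltbp3, in which the counting intervals of Itgav and Tgfb1, of Tgfbr3 and Itgb8, and of Tgfb2 and Ltbp3 overlapped. In lung it was Tgfbr2, Lrrc32, Tgfbr1, Itgav, Itgb8, Tgfb1, Tgfbr3, Ltbp3, Tgfb3 and Tgfb2, with overlap between Tgfbr3 and Ltbp3 and between Tgfb3 and Tgfb2. The levels ran from 0.0387 to 69.4 FPKM in spleen and from 0.0376 to 56.9 FPKM in lung.

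**Figure D1:**
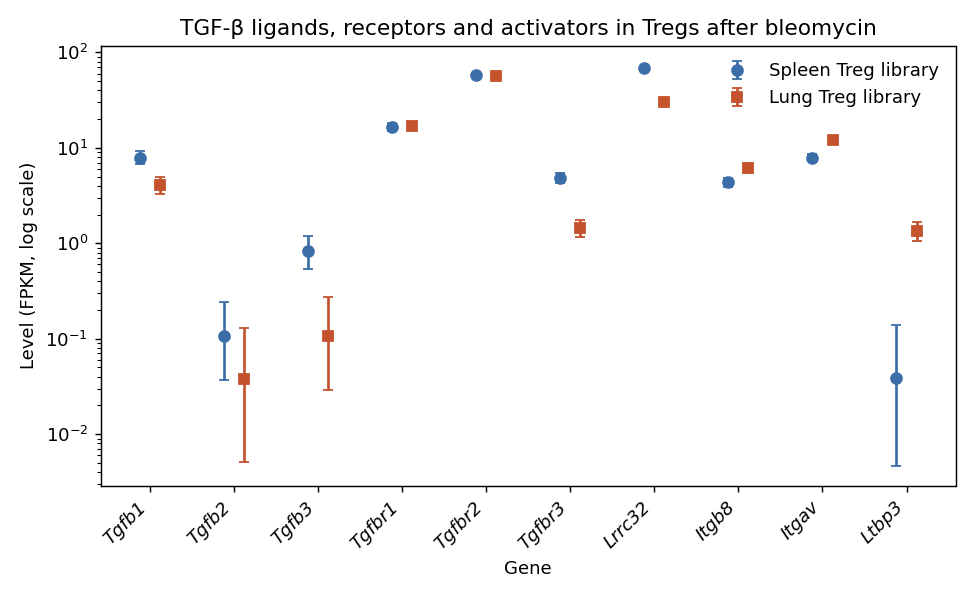
Level of each gene (vertical axis, FPKM on a log scale) in the splenic (circles) and lung (squares) library; bars are 95% Poisson intervals of the estimated reads and cover counting error only, and those of abundant genes are smaller than the symbols. Tgfbr1 and Tgfbr2 nearly coincide, Lrrc32 is at 69.4 and 30.4 FPKM, and Ltbp3 is near 0 in spleen and at 1.33 FPKM in lung.

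Among the ligands, Tgfb1 was the only one above 1 FPKM. Tgfb1, the TGF-β isoform made by most leukocytes, lies on chromosome 7 of GRCm38 (mm10) from 25687002 to 25705077 on the plus strand. It was listed at 7.88 FPKM in splenic Tregs (interval 6.71 to 9.19) and at 4.05 FPKM in lung Tregs (interval 3.28 to 4.96), from about 161 and 93.8 reads. The lung level was 1.94-fold lower, a ratio of 0.515 (interval 0.395 to 0.668), just outside the 2-fold limit used below. Tgfb3 was at 0.820 FPKM in spleen, from about 27.0 reads, and at 0.107 FPKM in lung, from about 4 reads. It was therefore 7.66-fold lower in lung (interval 2.67 to 30.2), on few reads. Tgfb2 was at 0.107 FPKM in spleen and 0.0376 FPKM in lung, which corresponds to 5.43 and 2.17 reads, and the interval of its lung-to-spleen ratio of 0.352 reached from 0.0384 to 1.98. A difference in Tgfb2 was thus not detectable at this depth. In FPKM, Tgfb1 exceeded Tgfb3 9.61-fold in spleen and 37.9-fold in lung.

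The ligands also differ in how integrins can bind their propeptides. Integrin αvβ8 recognises the tripeptide Arg-Gly-Asp, and a search of the coding sequences (GENCODE M21) found codons for it once in Tgfb1, from codon 244 of 390, and once in Tgfb3, from codon 261 of 412, but not in the 414 codons of Tgfb2. The stretches that hold these codons are shown because they are where the products of Itgav and Itgb8 meet the ligand. Capitals mark the Arg-Gly-Asp codons, and 4 codons are printed on either side.
Tgfb1: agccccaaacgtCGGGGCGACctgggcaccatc
Tgfb3: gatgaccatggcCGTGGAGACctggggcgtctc
Tgfb1, the only ligand above 1 FPKM, is thus one of those that carry the codons. Over the last 336 coding bases, which encode the mature ligand, Tgfb1 and Tgfb3 were 73.5% identical, Tgfb2 and Tgfb3 70.8% and Tgfb1 and Tgfb2 68.8%.

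Among the receptors, Tgfbr2, on chromosome 9 from 116084293 to 116175360 on the minus strand, was listed at 57.5 FPKM in spleen and 56.9 FPKM in lung. The ratio of lung to spleen was 0.989 (interval 0.944 to 1.04). Tgfbr1, on chromosome 4 from 47353222 to 47414931 on the plus strand, was at 16.5 FPKM in spleen and 16.9 FPKM in lung, with a ratio of 1.03 (interval 0.906 to 1.17). The 2 libraries thus differed by less than counting error in both signalling receptors. Tgfbr2 exceeded Tgfbr1 3.50-fold in spleen and 3.36-fold in lung, a comparison inside each library that no scaling between the libraries can move. Both genes have several transcripts of unequal length, so their read numbers, about 3326 and 3736 for Tgfbr2 and about 453 and 529 for Tgfbr1 in spleen and lung, are approximate. Tgfbr3, the coreceptor betaglycan that presents ligand to Tgfbr2, behaved otherwise. It lies on chromosome 5 from 107106570 to 107289629 on the minus strand and was at 4.82 FPKM in spleen, from about 294 reads, and 1.44 FPKM in lung, from about 99.6 reads. The lung level was 3.35-fold lower (interval 2.66 to 4.25). Tgfbr2 exceeded Tgfbr3 11.9-fold in spleen and 39.6-fold in lung.

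Lrrc32, which encodes the Treg surface protein GARP that anchors latent TGF-β, lies on chromosome 7 from 98489283 to 98502181 on the plus strand. It was listed at 69.4 FPKM in spleen (interval 66.8 to 72.1) and 30.4 FPKM in lung (interval 28.8 to 32.2), from about 2597 and 1293 reads. The lung level was 2.28-fold lower (interval 2.13 to 2.44). Among the 3389 genes with a mean of 20 to 100 FPKM in the 2 libraries, 2.83% had a lower lung-to-spleen ratio than Lrrc32 and 5.08% were over 2-fold lower. Foxp3 differed in the other direction, with 18.7 FPKM in splenic Tregs against 41.8 FPKM in lung Tregs. The ratio of Lrrc32 to Foxp3 was thus 3.70 in spleen and 0.728 in lung. Of 10 listed Treg genes, 6 were higher in lung, Foxp3 among them, and 4 were lower, as Lrrc32 was. The lower ones included Gpr83 (95.6 and 18.4 FPKM), Izumo1r (512 and 318 FPKM) and Il2ra (89.4 and 59.1 FPKM). Lrrc32 was also lower in relation to Tgfbr2, with a ratio of 1.21 in spleen and 0.535 in lung. In relation to Tgfb1, the cargo of GARP, it was 8.81 in spleen and 7.51 in lung, since both genes were lower. Nrros, which encodes the related anchor of latent TGF-β on myeloid cells, was at 50.6 FPKM in spleen and 31.5 FPKM in lung, 1.61-fold lower.

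Ltbp3, a latent TGF-β binding protein of the extracellular matrix, was the only one of the 10 genes over 2-fold higher in lung. It lies on chromosome 19 from 5740904 to 5758532 on the plus strand. In spleen it was at 0.0387 FPKM, which corresponds to 2 reads, and in lung at 1.33 FPKM, from about 78.0 reads. The ratio of these values was 34.4 (interval 9.20 to 289). After values under 0.1 FPKM were set to 0.1 it was 13.3, and with 3 reads in place of the splenic value it was 22.9. A list of 8 fibroblast marker genes summed to 0.168 FPKM in splenic against 142 FPKM in lung Tregs, of which Mgp made up 116 FPKM. The part of fibroblasts in the lung value of Ltbp3 was not tested.

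Among the activators, Itgav, on chromosome 2 from 83724397 to 83806916 on the plus strand, was at 7.89 FPKM in spleen (interval 7.25 to 8.57) and 12.0 FPKM in lung (interval 11.3 to 12.8). It was 1.52-fold higher in lung (interval 1.37 to 1.69). Itgb8, on chromosome 12 from 119158022 to 119238802 on the minus strand, was at 4.34 FPKM in spleen (interval 3.91 to 4.81) and 6.12 FPKM in lung (interval 5.64 to 6.63), 1.41-fold higher (interval 1.24 to 1.61). On the deposited scale both differences exceeded counting error, and both all but disappeared under TPM. Among the 3989 genes with a mean of 5 to 20 FPKM, 77.3% had a lower ratio than Itgb8 and 80.9% a lower ratio than Itgav, so differences of this size were common at that level. The 2 chains kept nearly the same proportion, with 1.82 FPKM of Itgav per FPKM of Itgb8 in spleen and 1.96 in lung. Against Lrrc32, the anchor of the complex that αvβ8 activates, Itgb8 was at 0.0626 in spleen and 0.201 in lung, a 3.21-fold higher proportion.

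Itgav and Itgb8 encode the 2 chains of one integrin and were both higher in lung on the FPKM as deposited, though not under TPM. Their promoters are shown (RefSeq, GRCm38.p6), as 300 bases around the start that RefSeq annotates. For Itgb8 this start, at 119238276, lies 526 bases inside the gene as GENCODE bounds it, and for Itgav the starts coincide. Capitals mark matches to CAGAC, the core of the SMAD binding element, searched on both strands.
Itgav, chr2:83724147-83724446, plus strand: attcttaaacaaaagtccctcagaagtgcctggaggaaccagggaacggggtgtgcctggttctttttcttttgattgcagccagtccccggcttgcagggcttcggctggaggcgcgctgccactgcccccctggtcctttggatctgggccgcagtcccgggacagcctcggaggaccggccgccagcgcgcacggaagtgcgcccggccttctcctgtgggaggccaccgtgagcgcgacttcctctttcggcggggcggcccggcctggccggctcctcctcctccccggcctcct
Itgb8, chr12:119238227-119238526, minus strand: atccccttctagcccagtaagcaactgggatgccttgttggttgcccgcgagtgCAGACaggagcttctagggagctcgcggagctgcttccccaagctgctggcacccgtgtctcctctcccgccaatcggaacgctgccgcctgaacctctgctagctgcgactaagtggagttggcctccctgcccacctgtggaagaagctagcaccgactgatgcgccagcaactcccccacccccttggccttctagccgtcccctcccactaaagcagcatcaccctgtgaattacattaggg
The window of Itgb8 held 1 match to CAGAC and that of Itgav 0, whereas 49.6% of all 32851 promoters of 300 bases held at least 1. The GC box GGGCGG, a site of the Sp1 family, was found once in the window of Itgav, not in that of Itgb8, and in 35.7% of all promoters. G and C made up 67.3% of the window of Itgav and 60.7% of that of Itgb8, against a median of 52.7% over all promoters. Entries were found for 7 of the 10 genes and not for Tgfb3, Tgfbr3 and Lrrc32.

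Counted by a limit of 2-fold, with values under 0.1 FPKM set to 0.1, 1 of the 10 genes (Ltbp3) was higher in lung and 3 (Tgfb3, Tgfbr3 and Lrrc32) were lower. Over all 24346 symbols, 11% were over 2-fold higher and 11.7% over 2-fold lower. The median log2 ratio of the 10 genes was -0.055, against 0 over all symbols. Of the 7 genes with a mean of at least 1 FPKM, 0 were over 2-fold higher and 2 were over 2-fold lower, where 16% and 13.7% of the 11421 genes at that level passed the limit. These counts rest on 1 to 3 genes and are given as a description. Nearest to the limit were Lrrc32, inside it at 2.28-fold, and Tgfb1, outside it at 1.94-fold. After rescaling of the libraries to TPM, so that each sums to the same total, every log2 ratio of a gene above the floor shifted by -0.43, and the genes over 2-fold higher and lower numbered 1298 and 2809 in place of 1833 and 1561. Tgfb1 then passed the limit with a log2 ratio of -1.39, and Tgfbr1 and Tgfbr2 came to -0.39 and -0.45, while Itgb8 and Itgav were near 0 as given above. Whether the 2 signalling receptors were level and αvβ8 was higher, or the receptors were lower and αvβ8 was level, thus depended on the scaling, whereas the lower Lrrc32, Tgfb1 and Tgfbr3 did not.

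**Figure D2:**
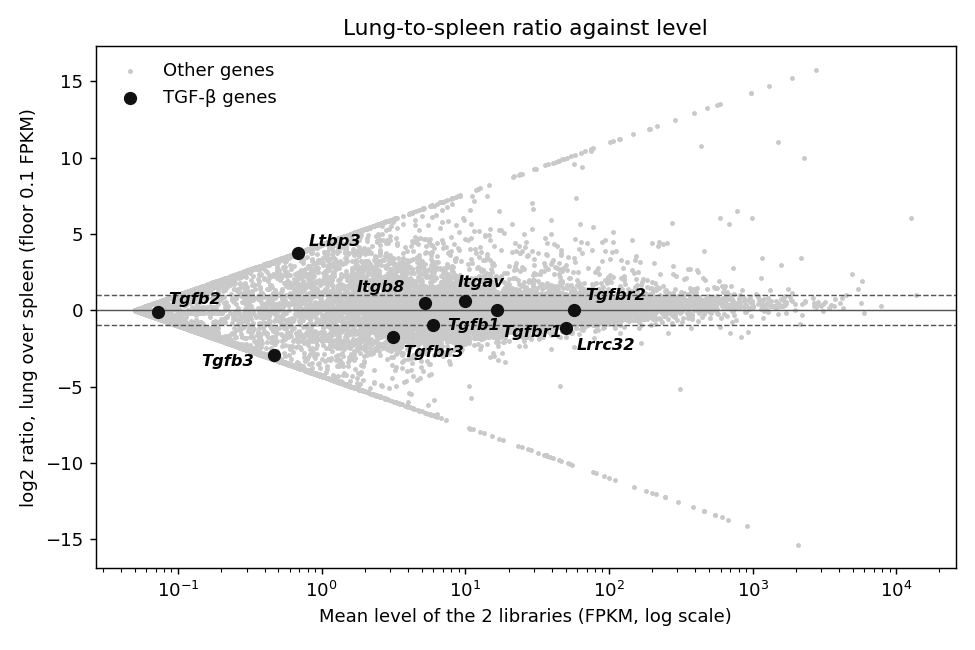
Log2 ratio of lung over spleen (vertical axis) against the mean level of the 2 libraries (horizontal axis, FPKM on a log scale) for all genes with a mean of at least 0.05 FPKM (grey) and the 10 TGF-β genes (black, named); dashed lines mark 2-fold. Most of the named genes lie inside the grey cloud between the lines, Lrrc32 lies near its lower edge for its level, and Ltbp3 and Tgfb3 lie where 1 library is near the floor.

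**Figure D3:**
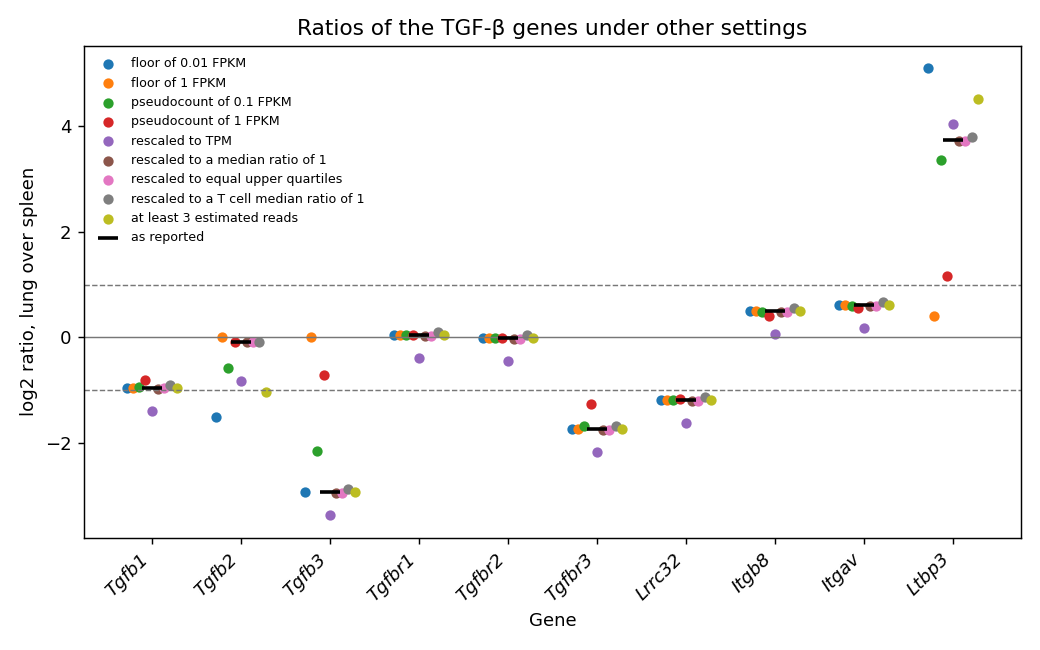
Log2 ratio of lung over spleen (vertical axis) of the 10 TGF-β genes as reported (black bars) and under 9 other settings (coloured points); dashed lines mark 2-fold. Lrrc32 and Tgfbr3 stay below -1 under each setting, Tgfbr1 and Tgfbr2 stay between -0.45 and 0.11, and Ltbp3 and Tgfb3 move with the floor and the pseudocount.

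Marker genes of the sorted cells and of other cells were compared in the same libraries. Cd4, a gene of the sort, was at 195 FPKM in spleen and 179 FPKM in lung. The 10 T cell genes summed to 4308 FPKM in splenic against 4174 FPKM in lung Tregs, and each was within 2-fold. The 10 Treg genes, Lrrc32 not among them, summed to 2044 and 3143 FPKM. Of them 6 were higher in lung, 3 of these over 2-fold, and 4 were lower, 1 of these over 2-fold. Tnfrsf4 alone made up 1004 FPKM of the lung sum. All 10 macrophage genes were higher in lung on the FPKM as deposited, 7 of them over 2-fold. Their sums were 550 and 26705 FPKM, of which Lyz2 made up 24947 FPKM in lung. The log2 ratios of Csf1r (0.19) and Mrc1 (0.30) would fall below 0 with the TPM shift of -0.43. Macrophages also express Tgfb1, Tgfbr1, Tgfbr2 and Itgav, and a part of these cells in the lung values was not tested. The dendritic cell genes, relevant to Itgb8, summed to 13.3 FPKM in splenic against 55.2 FPKM in lung Tregs, with 4 of 7 higher in lung and Clec9a at 0. Of the 6 platelet genes, relevant to Tgfb1 and Lrrc32, 5 were lower in lung and at 0 there, among them Ppbp (7.85 FPKM in spleen) and Gp9 (3.36 FPKM), while Pf4 was at 10.2 FPKM in spleen and 65.5 FPKM in lung. All 7 B cell genes were lower in lung, with sums of 254 and 130 FPKM. Of the 5 genes of CD8 T and NK cells, Ncr1 (2.69 FPKM in spleen and 0 in lung) and Eomes (1.68 and 0.0246) were over 2-fold lower, and Cd8a and Cd8b1 were over 2-fold higher. Of the 6 listed neutrophil genes, 5 were higher in lung, and Mpo (1.86 FPKM in spleen) was at 0 there. The part of these cells in the lower Tgfb1, Tgfb3, Tgfbr3 and Lrrc32 was not tested. Of the 8 fibroblast genes 7 were higher in lung and 6 were at 0 in spleen. The 8 epithelial genes summed to 11.01 and 3135 FPKM, of which the club cell gene Scgb1a1 made up 3021 FPKM in lung, and Epcam, with 8.75 and 1.79 FPKM, was lower in lung. The 7 endothelial genes summed to 55.5 and 48.9 FPKM, with 5 of them over 2-fold higher.

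**Figure D4:**
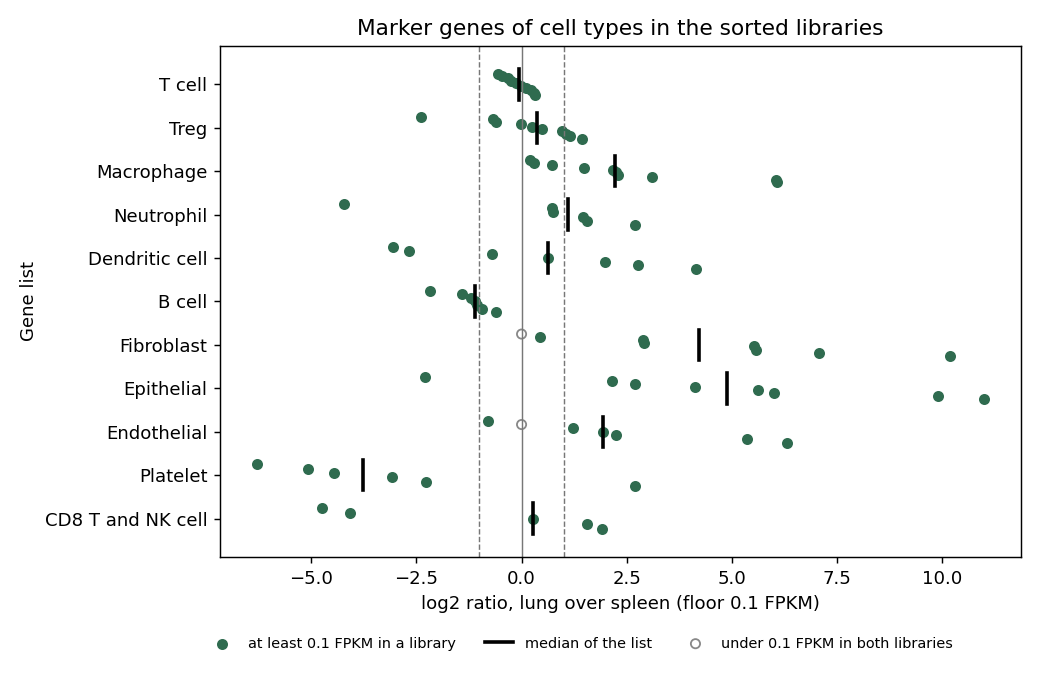
Log2 ratio of lung over spleen (horizontal axis) of marker genes (points) in 11 lists (vertical axis), with the median of each list as a black bar; open circles are genes under 0.1 FPKM in both libraries and dashed lines mark 2-fold. On the FPKM as deposited, T cell genes lie between -0.55 and 0.31, macrophage genes are all above 0 and B cell genes are all below 0.

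The 6 genes listed as responding to TGF-β signalling were higher in lung Tregs, in a list chosen with earlier results of these data known. All 6 genes of that list were over 2-fold higher, with a median log2 ratio of 2.77. Of all symbols 11% were over 2-fold higher, and their median was 0. Of the 6 genes, 5 had a mean of at least 1 FPKM, where 16% of genes were over 2-fold higher. As the list was so chosen, the count is a description and not a test of a TGF-β response. Tgfbi, a matrix protein induced by TGF-β, had the highest mean level, with 5.70 FPKM in spleen and 68.8 FPKM in lung. Pmepa1, a feedback inhibitor of the receptor pathway, had the lowest ratio, with 4.55 and 14.6 FPKM. Ctgf, which encodes the matrix-associated connective tissue growth factor, was listed at 0 in spleen and at 3.06 FPKM in lung, about 78.8 reads. With the 3 reads that a count of 0 allows in spleen the ratio was 23.1, and its lower counting limit was 18.4. Itgae, the integrin chain CD103 of tissue T cells, was 5.15-fold higher, with 10.8 FPKM in spleen and 55.4 FPKM in lung. Ldlrad4, another inhibitor of receptor signalling, was 3.45-fold higher, with 16.7 and 57.7 FPKM. The count of 6 does not include Smad7 and Skil, which were placed among the intracellular genes below. Smad7 was lower in lung, with 9.41 FPKM in spleen and 6.64 FPKM in lung. Skil of the same list was 1.58-fold higher, with 19.0 and 30.0 FPKM. Itgae, Ldlrad4, Smad7 and Skil were named after their values had been seen. Tgfbi is also expressed by macrophages and Ctgf by fibroblasts, whose markers were higher in lung as given above. Itgae is also expressed by dendritic cells, of whose 7 markers 4 were higher and 3 lower in lung, and by CD8 T cells. Of the 5 genes of CD8 T and NK cells, 3 were higher in lung and 2 lower. The higher ones included Cd8a (4.13 and 12.2 FPKM) and Cd8b1 (19.9 and 74.8 FPKM). The part of these cells was not tested.

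The other chains and proteases that activate TGF-β were higher in lung in 9 of 11 cases on the FPKM as deposited. Of these 11 genes, 6 were over 2-fold higher and 0 were over 2-fold lower, with a median log2 ratio of 1.11. Of all symbols 11% and 11.7% passed, and their median was 0. In the list 8 genes had a mean of at least 1 FPKM, where 16% and 13.7% of genes passed. Macrophages and fibroblasts also express several of them, such as Itgb5 and Mmp2, and the summed markers of both cell types were higher in lung (550 and 26705 FPKM, and 0.168 and 142 FPKM). Their part was not tested. Among the β chains that pair with αv, Itgb1 was the most abundant, at 129 FPKM in spleen and 149 FPKM in lung. Itgb5 was 3.78-fold higher, at 5.93 and 22.4 FPKM, and Itgb3 1.35-fold higher, at 6.08 and 8.17 FPKM. Under TPM the log2 ratios of Itgb1 and Itgb3 came to -0.22 and -0.0042, so neither was higher in lung on that scale. Itgb6, the epithelial partner of αv, was at 0.0421 FPKM in spleen and at 0 in lung. In lung Tregs Itgb8 was therefore the least abundant of these chains apart from Itgb6. Furin, the protease that cleaves the TGF-β propeptide, was 1.87-fold higher (9.76 and 18.2 FPKM), and its ratio to Tgfb1 was 1.24 in spleen and 4.50 in lung. Mmp2, a matrix protease of fibroblasts, had the highest ratio of the list, with 0.0681 FPKM from about 2.03 reads in spleen and 3.54 FPKM in lung, a ratio of 52.0 (interval 14.2 to 425). Of the 6 genes of latency and storage, 2 were over 2-fold higher and 0 over 2-fold lower with the floor of 0.1 FPKM, against the same shares of all symbols, and the median log2 ratio was -0.69. The higher ones were the matrix genes Fbn1 (0.00995 and 1.97 FPKM) and Ltbp2 (0.0151 and 0.425 FPKM), each from about 1 read in spleen. The binding proteins Ltbp1 (0.162 and 0.0129 FPKM, about 9.55 and 0.868 reads) and Ltbp4 (0.177 and 0.0347 FPKM, about 9.03 and 2.01 reads) differed the other way. They passed 2-fold lower with 3 reads in place of the lung value, at 3.61-fold and 3.42-fold. These 4 genes were named after their values had been seen.

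Inside the cell, 3 of 13 genes of the pathway were over 2-fold lower in lung and 2 were over 2-fold higher, with a median log2 ratio of -0.14. Of the list, 12 genes had a mean of at least 1 FPKM, where 13.7% of genes were over 2-fold lower and 16% over 2-fold higher, so that the higher genes were near the background share. The lower ones were Map3k7, a kinase activated beside the SMAD proteins (15.8 and 6.15 FPKM, 2.56-fold lower), the common mediator Smad4 (33.9 and 16.03 FPKM, 2.12-fold lower) and the signal transducer Smad3 (11.1 and 5.41 FPKM, 2.06-fold lower). Smad3 fell short of 2-fold when T cell genes were the reference (log2 ratio -0.98) and with a pseudocount of 1 FPKM (-0.92). The higher ones were Tgif1, a corepressor of SMAD-driven transcription (61.2 and 198 FPKM, 3.24-fold), and Dab2, an adaptor that binds the receptors and SMAD proteins. Dab2 was listed at 0 in spleen and at 24.5 FPKM in lung. The ratio was 303 with 3 reads in spleen, and its lower counting limit was 246. Dab2 is also a gene of macrophages, whose markers were higher in lung, and their part was not tested. Fkbp1a, which binds the type I receptor and keeps it inactive, was the most abundant, at 166 FPKM in spleen and 223 FPKM in lung. Smad3, Smad4 and Tgif1 were named after their values had been seen.

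**Figure D5:**
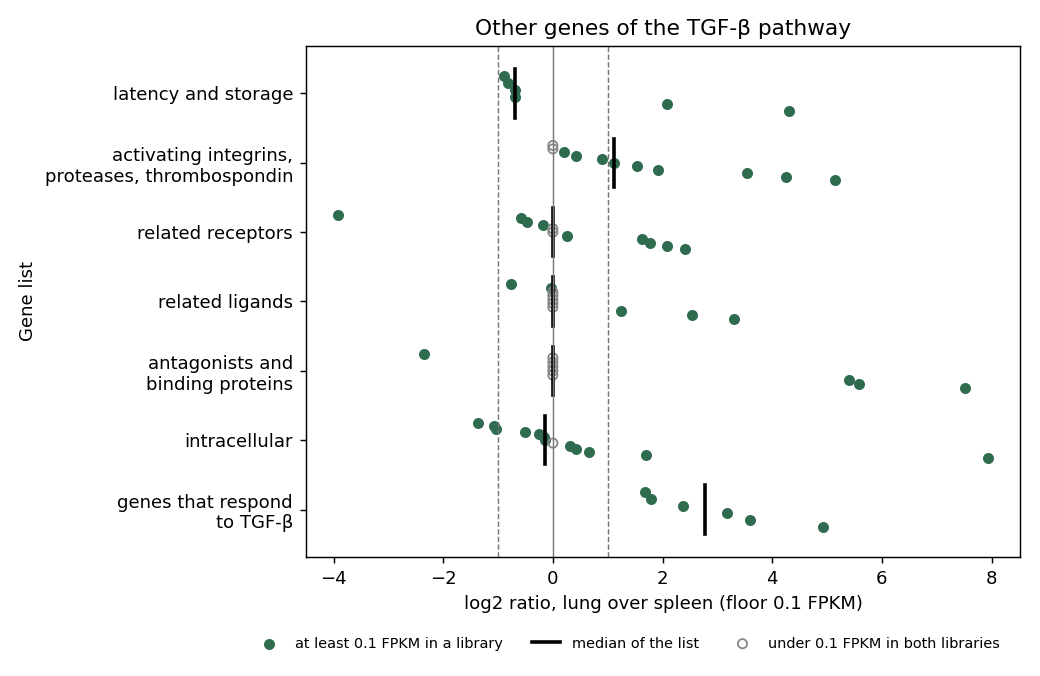
Log2 ratio of lung over spleen (horizontal axis) of 66 other genes of the TGF-β pathway (points) in 7 lists (vertical axis), with the median of each list as a black bar; open circles are genes under 0.1 FPKM in both libraries, and dashed lines mark 2-fold. All 6 genes listed as responding to TGF-β, a list chosen with earlier results of these data known, lie to the right of the 2-fold line. The intracellular genes, Smad7 and Skil among them, are spread on both sides of 0.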

How the data were processed

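Bulk RNA-seq was performed on GFP+CD4+ cells of spleen and lung, with SMART-Seq HT cDNA and 75-base single-end reads. The authors mapped reads to mm10 with TopHat2 2.1.1, Bowtie2 2.2.8 and SAMtools 0.1.18, and the deposited values are FPKM from Cuffdiff 2.2.1. The annotation and the scaling between libraries are not given in the sources used here. Libraries were assigned to tissues from their labels.

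FPKM under 0.1 were set to 0.1 and lung was divided by spleen. Genes over 2-fold were counted in all symbols and in those with a mean of at least 1 FPKM. No test was possible with 1 library per tissue. Reads were estimated as FPKM multiplied by the effective length of GENCODE M21 transcripts tied to RefSeq (fragments of mean 200, SD 80, at least 75), divided by the most frequent product among transcripts of at least 1500 nt. Lengths were found for 97.1% of symbols, 23016 directly and 634 through synonyms. Of genes with 1 transcript length and 1 to 10 estimated reads, 74.3% in spleen and 76.7% in lung lay within 0.1 of a whole number. The steps were tested on simulated data, drawn with the same effective lengths that the estimate assumes and with changes planted only in genes of higher level. Such data cannot check genes of few reads or the scaling of the deposited values.

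The 10 genes, 7 lists of pathway genes (66 genes) and 11 marker lists were chosen with earlier results of these data known. Of 151 genes in these lists 150 were listed. In each pathway list the gene of highest mean level, those of highest and lowest ratio at a mean of at least 1 FPKM, and partners of the 10 genes were named. The alternatives were a floor of 0.01 or 1 FPKM, a pseudocount of 0.1 or 1 FPKM, libraries rescaled (to TPM, a median ratio of 1, equal upper quartiles, or T cell genes), 3 reads as the least, other filters, folds of 1.5 and 4, and other transcript lengths. Scripts used Python 3.11.15 with scipy 1.17.1, pandas 2.3.3 and numpy 2.4.6, and figures were drawn with matplotlib 3.10.9.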

Additional observations from a re-analysis of the deposited data

How the results depend on the processing

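No paired analysis was possible because each tissue has 1 library. Rescaling to TPM gave log2 ratios of -1.39 for Tgfb1, -0.39 for Tgfbr1, -0.45 for Tgfbr2, -2.18 for Tgfbr3, -1.62 for Lrrc32, 0.063 for Itgb8 and 0.17 for Itgav, and raised the counts over 2-fold lower to 11 pathway genes (5 as reported) and 2809 of all genes (1561 as reported), with 1298 higher (1833 as reported). The other rescalings shifted log2 ratios by -0.02 to 0.06, so that Tgfbr2 came to 0.05 with T cell genes as the reference. Genes of few reads moved with the floor. A floor of 1 FPKM gave log2 ratios of 0 for Tgfb3 and 0.41 for Ltbp3, left 0 of the 10 genes over 2-fold higher, and left 3 pathway genes over 2-fold lower. A pseudocount of 1 FPKM gave -0.72 for Tgfb3, -1.25 for Tgfbr3 and 1.17 for Ltbp3, and also 3 pathway genes lower. A floor of 0.01 FPKM gave 12 lower pathway genes and a pseudocount of 0.1 FPKM gave 9. Tgfb2 passed 2-fold lower with a floor of 0.01 FPKM (-1.51) and with at least 3 reads (-1.04). With a limit of 1.5-fold, 2 of the 10 genes were higher, 10 pathway genes were lower, and 2979 and 2746 of all genes were higher and lower. With a limit of 4-fold, 1 of the 10 genes was lower, 17 pathway genes were higher (26 as reported) and 2 lower, and 957 and 575 of all genes passed. A mean of at least 10 FPKM left 656 higher and 453 lower genes, and without a filter 2850 were lower. With the shortest and the longest transcript, estimated reads were 257 and 946 (spleen) and 299.9 and 1106 (lung) for Tgfbr1, and 1949 and 4702 (spleen) and 2189 and 5282 (lung) for Tgfbr2. These shifts follow from the construction of each setting. Under all 9 settings of floor, pseudocount, scaling and reads, Lrrc32 and Tgfbr3 stayed over 2-fold lower and Tgfb1 stayed lower. Depth limits Tgfb2, Tgfb3 and Ltbp3, which had 2 to 5.43 reads in at least 1 library.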

Other observations

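Related receptors, ligands and antagonists of the TGF-β superfamily were listed in the same libraries. Of 11 related receptors, 4 were over 2-fold higher in lung and 1 over 2-fold lower, with a median log2 ratio of 0, where 11% and 11.7% of all symbols passed and their median was 0. The lower one was Acvr1b, a type I receptor of activins, at 1.51 FPKM in spleen from about 65.9 reads and 0.0277 FPKM in lung from about 1.37 reads, and it was 15.1-fold lower with the floor of 0.1 FPKM. It was named after its values had been seen. Acvrl1, a type I receptor of endothelial cells and macrophages, had the highest mean level, at 2.39 FPKM in spleen and 10.2 FPKM in lung. Eng, its coreceptor, was 5.33-fold higher, at 0.559 and 2.98 FPKM, and Acvr2a, a type II receptor of activins, had the lowest ratio of those with a mean of at least 1 FPKM, at 1.73 and 1.24 FPKM. Of 10 related ligands, 3 were over 2-fold higher, 0 were over 2-fold lower and 5 were at 0 in both libraries. Their median log2 ratio was 0, against the same shares and median of all symbols as for the receptors. Bmp7, a bone morphogenetic protein, had 12.5 FPKM in splenic against 29.4 FPKM in lung Tregs and thus exceeded Tgfb1 in both. Its log2 ratio of 1.23 came to 0.80 under TPM, short of 2-fold. Gdf15, a ligand induced by cell stress, was at 0.551 FPKM in spleen, from about 7.16 reads, and 5.43 FPKM in lung.

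Over all symbols, 11% were over 2-fold higher in lung and 11.7% over 2-fold lower. The 9 antagonists and binding proteins had a median log2 ratio of 0. Of these 9 genes, 3 were over 2-fold higher in lung, 1 was over 2-fold lower and 3 were at 0 in both libraries. The higher ones were the small proteoglycan Dcn, which binds TGF-β (0.122 and 22.2 FPKM), the related Bgn (0.310 and 13.1 FPKM), and the activin antagonist Fst (0.0410 and 4.77 FPKM). The lower one, named after its values had been seen, was the Nodal antagonist Lefty1 (0.622 and 0.122 FPKM, about 9.10 and 2.02 reads). Dcn had about 1.95 reads in spleen, and its ratio was 183 (interval 49.6 to 1571). For Fst the splenic value was worth less than 1 read, and with 3 reads in its place the ratio was 27.1. Dcn and Bgn are genes of fibroblasts, whose markers were higher in lung, and the part of these cells was not tested.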
